A study of Mus musculus with 54 samples.

Results

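The genes described here encode the inhibin, activin and anti-Müllerian hormone system of the gonadal support cells, granulosa cells in the ovary and Sertoli cells in the testis. They are the inhibin alpha subunit Inha, the beta subunits Inhba and Inhbb, the activin-binding protein follistatin (Fst), the follicle-stimulating hormone receptor Fshr, the anti-Müllerian hormone gene Amh, the transcription factors Foxl2 and Nr5a2, the estrogen-producing enzyme Hsd17b1 and the gap junction subunit Gja1. Each was found by its symbol in the ovary and testis count tables. All 10 were present, among 26264 gene entries in each table.

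Mouse ovaries and testes were profiled by RNA sequencing after exposure to mixtures of common anti-inflammatory drugs, ibuprofen or its metabolite 2-hydroxyibuprofen (IBU/2hIBU) and diclofenac (DCF), with the synthetic estrogen ethinylestradiol (EE2). The mixtures were given in the drinking water to pregnant mice from 8.5 days post-coitum (dpc) and then to their offspring, the F1 generation. Dose 2 held 113 ng/L ibuprofen, 225 ng/L 2-hydroxyibuprofen, 112 ng/L diclofenac and 45 ng/L ethinylestradiol. Dose 1 held 11.3, 90, 22.5 and 2.25 ng/L of the same compounds, and control water held 0.001% ethanol. Females were killed at 8 weeks and males at 10 weeks, per a protocol given for all samples alike that does not name the age of F2 animals, so tissue, sex and age cannot be told apart. F1 animals formed the groups dose 2, dose 1 and control. F2 animals, labelled as not treated themselves, came from dose 1 mothers, dose 2 mothers, dose 1 fathers, dose 2 fathers (the other parent a control in each case), dose 2 parents on both sides, or control parents. Each of the 18 groups, 9 per tissue, had 3 libraries, lettered A, B and C, and values below are listed in that order. The labels do not tie the 3 libraries of a group to separate animals or litters, and every p-value therefore describes variation among these libraries, which may be technical.

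Inhibin is a dimer of the alpha subunit with a beta subunit and restrains the release of follicle-stimulating hormone by the pituitary. Activins are dimers of beta subunits alone, signal through type I and type II receptor kinases and Smad proteins, and are bound and neutralised by follistatin. Granulosa cells of growing follicles and Sertoli cells are the classical gonadal sources of inhibin and of anti-Müllerian hormone. Sertoli cells make much anti-Müllerian hormone before puberty and little in adult life.

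The upstream sequences of the subunit, receptor and granulosa regulator genes are shown because these genes stood higher in ovary than in testis. They are the 250 bases before the annotated transcription start on the gene's own strand, from RefSeq on GRCm38.p6, whereas the counts were made on mm39. The sequence table held 7 of the 10 genes. Capitals mark matches to any of 7 motifs searched on both strands: the E-box CACGTG, the site of NR5A receptors AAGGTCA, the cyclic AMP response element TGACGTCA, the site of AP-1 factors TGANTCA, the site of GATA factors AGATAA, the site of forkhead factors GTAAACA and the TATA box TATAAA.
Inha, chr1:75507359-75507608, plus strand: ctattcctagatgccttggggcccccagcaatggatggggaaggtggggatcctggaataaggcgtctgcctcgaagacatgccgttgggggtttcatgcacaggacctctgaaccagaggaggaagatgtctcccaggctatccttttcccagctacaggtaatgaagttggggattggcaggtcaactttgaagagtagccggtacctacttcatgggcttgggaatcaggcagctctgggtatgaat
Inhba, chr13:16011601-16011850, plus strand: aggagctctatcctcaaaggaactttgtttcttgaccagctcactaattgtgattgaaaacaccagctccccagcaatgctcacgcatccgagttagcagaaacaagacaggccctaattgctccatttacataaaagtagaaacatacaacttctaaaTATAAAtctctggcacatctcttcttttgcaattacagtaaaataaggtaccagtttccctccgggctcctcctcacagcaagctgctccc
Inhbb, chr1:119422249-119422498, minus strand: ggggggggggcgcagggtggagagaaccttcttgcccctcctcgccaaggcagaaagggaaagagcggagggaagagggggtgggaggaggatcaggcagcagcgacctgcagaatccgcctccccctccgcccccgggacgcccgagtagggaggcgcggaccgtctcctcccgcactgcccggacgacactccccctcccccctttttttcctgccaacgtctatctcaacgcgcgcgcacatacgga
Fshr, chr17:89200676-89200925, minus strand: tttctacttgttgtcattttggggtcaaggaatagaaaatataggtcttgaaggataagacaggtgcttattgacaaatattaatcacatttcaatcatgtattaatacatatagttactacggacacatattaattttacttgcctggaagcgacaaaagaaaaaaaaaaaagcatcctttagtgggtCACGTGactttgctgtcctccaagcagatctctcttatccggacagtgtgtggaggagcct
Foxl2, chr9:98955357-98955606, plus strand: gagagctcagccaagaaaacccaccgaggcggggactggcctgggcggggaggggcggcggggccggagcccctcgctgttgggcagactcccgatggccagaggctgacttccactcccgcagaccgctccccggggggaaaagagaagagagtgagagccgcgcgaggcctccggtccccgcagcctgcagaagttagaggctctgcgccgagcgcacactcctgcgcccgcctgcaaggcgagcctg

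The beta subunit windows differed in composition. The Inhbb window held 68.0% G or C and 21 CpG pairs, and the Inhba window 43.2% and 3. The medians over all 32851 windows were 52.4% and 6. The Foxl2 window was like that of Inhbb, with 70.8% and 22 pairs, and the Inha window was nearer the median, with 53.6% and 4. TATAAA was found 91 bases before the Inhba start, a motif held by 12.4% of all windows. CACGTG was found 61 bases before the Fshr start and was held by 6.02% of windows. The Gja1 window (chr10:56377050-56377299, plus strand) held TGAGTCA 19 bases before the start, the AP-1 motif of 6.75% of windows. It also held AGATAA on the reverse strand at 135 bases, a motif of 9.99% of windows. The first of the windows listed for Nr5a2 (chr1:136960449-136960698, minus strand) held AGATAA on the reverse strand at 217 and 200 bases and TATAAA on the reverse strand at 181 bases. No searched motif was found in the Inha, Inhbb and Foxl2 windows. AAGGTCA (4.08% of windows), GTAAACA (3.17%) and TGACGTCA (1.55%) matched none of the windows of these genes.

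Depth was 35642474 to 101817720 counts per ovary library (median 43773645) and 31835494 to 46432282 counts per testis library (median 37717087). Defining genes matched the tissue labels. Dmrt1, a Sertoli and germ cell gene, had 0 to 4 counts in ovary libraries and 487 to 807 in testis libraries. The oocyte gene Gdf9 had 2302 to 6727 counts in ovary libraries and 9 to 35 in testis libraries. Some libraries stood apart in other cell types. Ovary F1 dose 2 A and B and F1 control A had the highest summed oviduct epithelium genes, and F2 control parents C, F1 control C and F1 dose 1 C the highest summed periovulatory genes. Testis F1 control C, F1 dose 1 A and F2 dose 2 parents C had the highest summed spermatid genes. Differences that involve these libraries are given without them where they bear on the results below. In whole tissue, fewer cells of a type and less RNA per cell cannot be told apart.

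**Figure D1:**
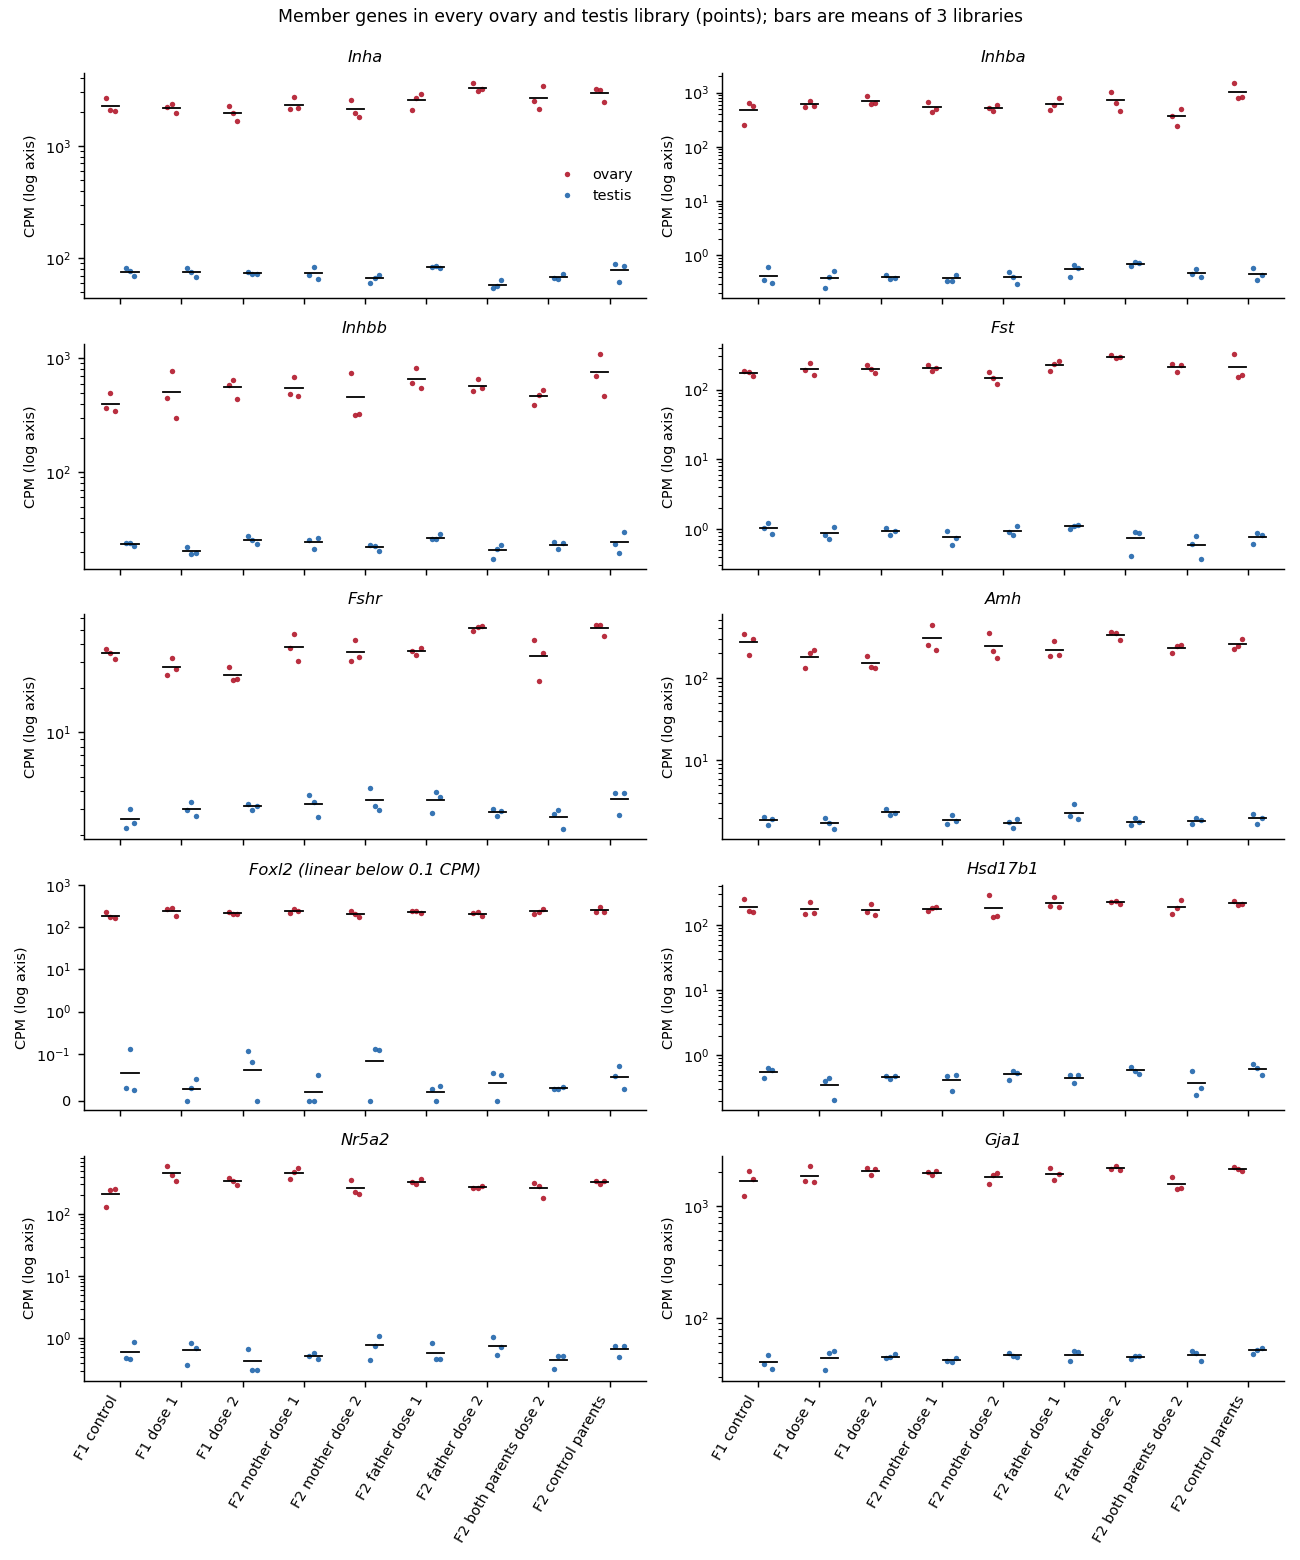
Level of each of the 10 genes in every library, in CPM on a log axis (linear near 0 for Foxl2). Each point is 1 library, coloured by tissue, each bar is the mean of 3 libraries, and groups run along the horizontal axis. Every ovary library was above every testis library for every gene, and Foxl2 and Inhba showed the widest gap.

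The alpha subunit Inha was the most abundant of the 10 per length in both tissues and was far higher in ovary. Levels are given as CPM, counts scaled to a common library total, with library sizes scaled within a tissue by the trimmed mean of M values. In ovary, Inha had 2649, 2075 and 2023 CPM in the F1 control libraries and 3219, 3122 and 2448 CPM in the F2 control parents libraries. In testis it had 81.5, 76.6 and 69.2 CPM in F1 controls and 88.5, 60.9 and 84.8 CPM in F2 control parents. The lowest ovary level was 1674 CPM and the highest testis level 88.5 CPM. The log2 difference of ovary over testis, fitted over all 54 libraries, was 4.35 ± 0.17 (SE) in F1 controls and 4.68 ± 0.17 in F2 control parents.

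The beta subunits did not follow each other between the tissues. Inhba, which encodes the subunit of activin A and inhibin A, had 257, 639 and 558 CPM in F1 control ovaries, against 0.343, 0.607 and 0.311 CPM in F1 control testes. In F2 control parents it had 1481, 809 and 818 CPM in ovary, against 0.579, 0.345 and 0.428 CPM in testis. Inhba was near the floor in testis, with 8 to 26 counts per library. B230303A05Rik overlaps Inhba on the opposite strand and had 0 to 13 counts in ovary and 7 to 106 in testis. Because the strand setting of the counting is not given in the sources used here, the few testis counts of Inhba are uncertain. Inhbb, the subunit of activin B and inhibin B, had 364, 493 and 342 CPM in F1 control ovaries, against 23.8, 23.8 and 22.7 CPM in F1 control testes. Among F2 control parents it had 704, 1088 and 462 CPM in ovary, against 23.5, 19.4 and 29.99 CPM in testis. The Inhba difference, 9.64 ± 0.41 on the log2 scale in F1 controls and 10.61 ± 0.42 in F2 control parents, was larger than the Inhbb difference of 3.55 ± 0.29 and 4.40 ± 0.30.

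Divided by exon length, the ratio of Inhba to Inhbb was 0.470 to 1.40 in the 6 control ovaries and 0.00914 to 0.0170 in the 6 control testes. The ratio was 71.3-fold higher in ovary as the ratio of geometric means. A 2-sided exact permutation test on its log2 gave p = 0.00216, the smallest that 6 against 6 allows, and 3 such ratios were tested (adjusted p = 0.00325). Inhba exceeded Inhbb in 7 of 27 ovary libraries and in 0 of 27 testis libraries. Alpha over the summed beta subunits, by contrast, was 5.49 to 14.3 in control ovaries and 8.08 to 10.7 in control testes, so the tissues overlapped. That ratio was 0.804-fold in ovary relative to testis, with an exact permutation p of 0.18 (adjusted p = 0.18). The beta subunit makeup thus differed between the tissues, and a difference in alpha over beta was not shown.

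**Figure D2:**
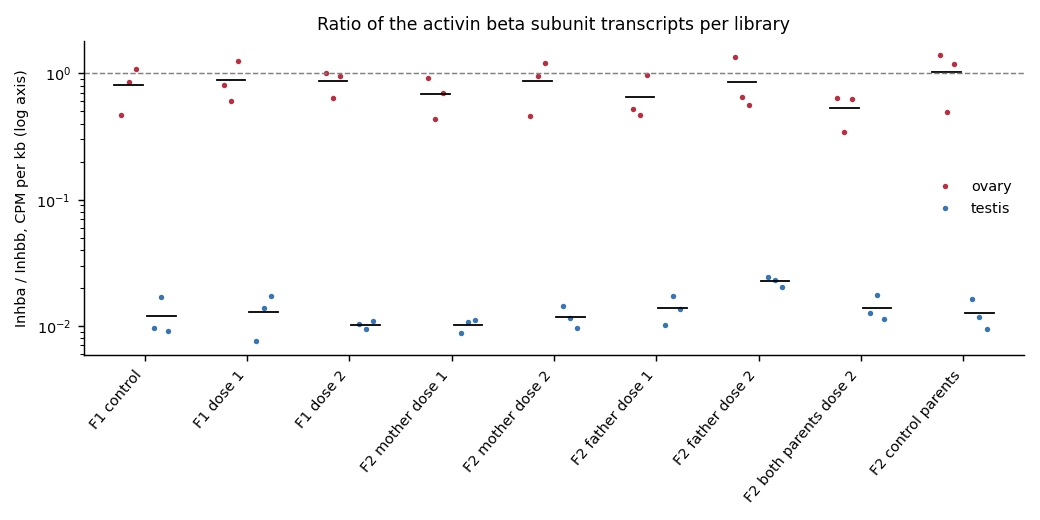
Ratio of Inhba to Inhbb counts per kilobase of exon in every library, on a log axis, by group and tissue, with a horizontal bar for each group mean and a dashed line at equal levels. Ovary libraries lay between 0.342 and 1.40 and testis libraries between 0.00758 and 0.0246, and the F2 testes of dose 2 fathers were the highest testis group.

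Follistatin (Fst) had 184, 176 and 155 CPM in F1 control ovaries, against 1.03, 1.21 and 0.844 CPM in F1 control testes. In F2 control parents the values were 323, 152 and 165 CPM in ovary, against 0.606, 0.862 and 0.805 CPM in testis. Its level relative to the summed beta subunits per length was 0.0868 to 0.319 in control ovaries and 0.0235 to 0.0465 in control testes, 5.12-fold higher in ovary. The exact permutation test of that ratio gave p = 0.00216 (adjusted p = 0.00325). Gm47040 overlaps Fst on the opposite strand, so reads of the pair cannot be told apart without the strand setting.

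Fshr, the receptor through which follicle-stimulating hormone acts on both support cells, showed the smallest tissue difference of the 10. It had 37.04, 34.9 and 31.8 CPM in F1 control ovaries, against 2.25, 3.01 and 2.42 CPM in F1 control testes. In F2 control parents it had 54.1, 53.7 and 45.2 CPM in ovary, against 3.87, 2.73 and 3.90 CPM in testis. The groups did not overlap, and the log2 difference was 3.22 ± 0.19 in F1 controls and 3.31 ± 0.19 in F2 control parents. Fshr was the lowest of the 10 per length in ovary and had 3 genes above it in testis.

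Amh had 338, 189.7 and 299 CPM in F1 control ovaries, against 2.06, 1.64 and 1.91 CPM in F1 control testes. In F2 control parents the values were 222, 246 and 297 CPM in ovary, against 2.21, 1.70 and 1.99 CPM in testis. Adult testis thus held a low but counted level, 55 to 109 counts per library. The log2 difference was 6.66 ± 0.29 in F1 controls and 6.47 ± 0.29 in F2 control parents.

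Foxl2, which maintains granulosa identity and represses Sertoli genes, was at the floor in testis. It had 226, 178 and 163 CPM in F1 control ovaries and 232, 302 and 235 CPM in F2 control parents ovaries. Testis libraries held 0 to 5 counts. Mean ovary CPM over pooled testis CPM was 3304 in F1 controls (95% exact Poisson interval 1603 to 8217, from 7 testis counts). It was 5059 in F2 control parents (2324 to 13786, from 6 counts). Both intervals cover counting error only. Foxl2os, antisense to Foxl2, had 6630 to 24037 counts in ovary and 0 to 5 in testis, so sense and antisense reads may be mixed in ovary but both were near 0 in testis.

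Hsd17b1, which converts estrone to estradiol in granulosa cells, had 253, 165 and 159.7 CPM in F1 control ovaries and 0.449, 0.632 and 0.600 CPM in F1 control testes. Among F2 control parents the values were 235, 202 and 211 CPM in ovary and 0.738, 0.640 and 0.503 CPM in testis. Nr5a2, a nuclear receptor required for ovulation and luteinisation in mice, had 131, 248 and 256 CPM in F1 control ovaries, against 0.475, 0.455 and 0.866 CPM in F1 control testes. These genes stood next to each other in the order of tissue differences, with log2 values of 7.87 ± 0.31 for Hsd17b1 and 7.90 ± 0.34 for Nr5a2 in F1 controls, within their errors. Gja1, the connexin that couples granulosa cells and also joins Sertoli cells, had 1219.8, 2056 and 1734 CPM in F1 control ovaries, against 39.2, 46.8 and 35.1 CPM in F1 control testes. Among F2 control parents it had 2233, 2115 and 2035 CPM in ovary, against 48.1, 52.5 and 54.4 CPM in testis. The log2 difference of Gja1 was 4.83 ± 0.17 in F1 controls and 4.81 ± 0.16 in F2 control parents.

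All 10 genes passed the test as higher in ovary in both control sets, by edgeR's quasi-likelihood test with Benjamini-Hochberg adjustment over 20864 genes at an adjusted p of 0.05. Their largest adjusted p was 8.23e-15, for Inhbb in F1 controls. Of all genes tested, 42.9% passed as higher in ovary in F1 controls and 42.7% in F2 control parents. The median log2 difference of the 10 genes was 6.76 in F1 controls and 7.02 in F2 control parents, where the median of all genes was -0.01 in both. DESeq2's size factors moved the all-gene median by -0.31 and -0.32, and upper-quartile factors by 0.15 and 0.14. All 10 stayed higher in ovary under both scalings, and DESeq2 also called all 10, with 86.4% and 86.3% of all genes in either direction.

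**Figure D3:**
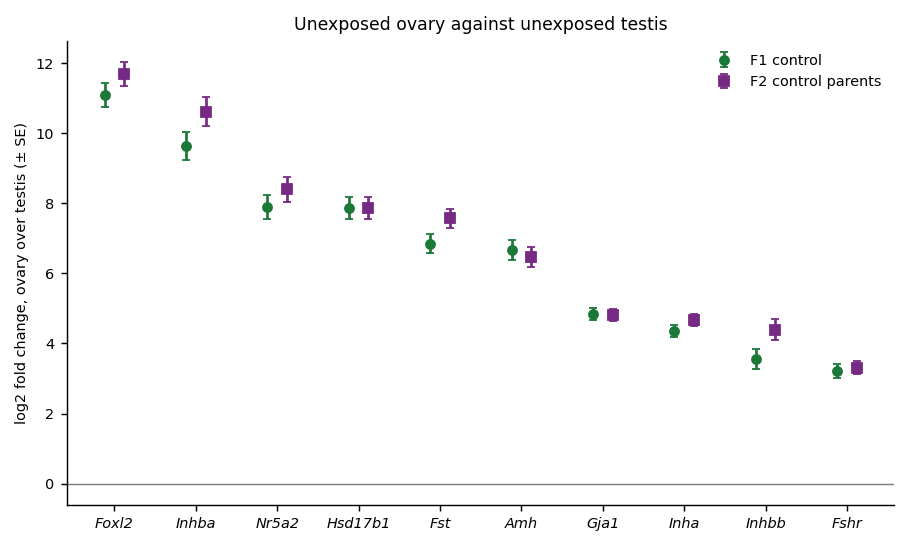
Log2 difference of ovary over testis for each gene, with its standard error as a bar, in F1 controls and F2 control parents. Foxl2 and Inhba were highest and Fshr lowest, and all 20 values were above 3 on the log2 scale.

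Compared per kilobase of exon, the order over the median of 27 ovary libraries was Inha (1590 CPM per kilobase), Gja1 (189.8), Hsd17b1 (142), Amh (133), Inhbb (121), Inhba (91.7), Foxl2 (70.1), Nr5a2 (54.2), Fst (41.8) and Fshr (14.8). In testis the order was Inha (48.6), Inhbb (5.51), Gja1 (4.50), Fshr (1.27) and Amh (1.14), with Hsd17b1 (0.368), Fst (0.188), Nr5a2 (0.0882), Inhba (0.0669) and Foxl2 (0.00822) below them. Inha was at the top in both tissues, and Inhba had 5 genes above it in ovary and 8 in testis.

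The genes also differed in how evenly they were expressed across the 27 ovary libraries. Inhba was the most variable, with a coefficient of variation of 39.8% and a 6.06-fold range between its lowest and highest library. Inhbb (32.9%), Amh (31.9%) and Nr5a2 (31.4%) came next. Foxl2 and Gja1 were the steadiest, at 14.6% each. In testis the well-counted genes were even, with 10.7% for Gja1, 12.6% for Inhbb and 12.97% for Inha.

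Directly exposed F1 ovaries had lower Amh and Fshr and higher Nr5a2 than control ovaries in these libraries, but no gene passed edgeR's test, and DESeq2 passed Nr5a2 alone, at dose 1. Amh had 338, 189.7 and 299 CPM in control ovaries, 131, 199 and 217 at dose 1 and 184, 135 and 132 at dose 2. Fshr had 37.04, 34.9 and 31.8 CPM in control ovaries, 24.7, 32.3 and 27.01 at dose 1 and 28.00, 22.7 and 23.00 at dose 2. All dose 2 libraries lay below all controls for both genes, whereas dose 1 overlapped the controls. The log2 difference of dose 2 over control was -0.88 ± 0.26 for Amh and -0.49 ± 0.14 for Fshr, each with an adjusted p of 0.411 by edgeR's quasi-likelihood test. At dose 1 it was -0.60 ± 0.26 for Amh and -0.31 ± 0.14 for Fshr (adjusted p = 0.726 and 0.726). Taken as same-letter pairs, dose 1 was lower than control in 3 of 3 for Fshr and in 2 of 3 for Amh. With the letter as a block, the dose 1 difference was -0.57 for Amh, -0.30 for Fshr and 1.10 for Nr5a2, each with an edgeR adjusted p of 0.729.

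Nr5a2 had 131, 248 and 256 CPM in control ovaries, 596, 433 and 345 at dose 1 and 379.7, 345 and 291 at dose 2. Every exposed library was above every control, and control A was the lowest of the 27 ovary libraries. The log2 difference was 1.11 ± 0.29 at dose 1 and 0.68 ± 0.28 at dose 2, with edgeR adjusted p-values of 0.726 and 0.411. DESeq2 passed Nr5a2 at dose 1 with an adjusted p of 0.0398, where it called 0.454% of all genes. Inhba at dose 2 had 884, 623 and 632 CPM against 257, 639 and 558 CPM in controls, with a log2 difference of 0.56 ± 0.31 and overlapping groups.

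edgeR's quasi-likelihood test called 0 of the 10 genes in either F1 ovary comparison, as it called 0% of all genes there. At an unadjusted p under 0.05 there were 2 of the 10 at dose 1 and 3 at dose 2. Of all genes, 5.27% and 12.0% had such a p. DESeq2 called 1 and 0, against 0.454% and 1.83% of all genes. At dose 1, 1 gene did not overlap the controls, Nr5a2, where 11.3% of all genes did not. At dose 2 there were 3, Amh, Fshr and Nr5a2, where 20.7% of all genes did not. Dose 2 against dose 1 gave 0 calls of 10 by edgeR (0% of all genes) and 0 by DESeq2 (1.56% of all genes). At an unadjusted p under 0.05 it gave 0 of 10, against 4.71% of all genes. No gene separated the doses, where 10.5% of all genes did.

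Summed genes of other cell types also stood at different levels in the F1 ovary groups. The 10 oocyte genes summed to 246 to 364 CPM at dose 2, against 393 to 487 CPM in controls. The 10 periovulatory genes summed to 77.1 to 98.99 CPM at dose 2, against 128 to 402 CPM in controls, with at most 1 of the genes at 0 in a library. The 8 oviduct epithelium genes summed to 45.6 to 1316 CPM at dose 2, against 62.1 to 281 CPM in controls, with none at 0. Their part in the Amh, Fshr and Nr5a2 differences was not tested. Without the 3 libraries highest in oviduct genes, library C was the only dose 2 library left, so its values describe that library. The dose 2 log2 difference was then -0.89 for Amh, -0.54 for Fshr and 0.21 for Nr5a2. Without the 3 highest in periovulatory genes, it was -0.82, -0.56 and 0.83 in the same order of genes. At dose 1 the values were -0.42, -0.25 and 0.86 without the oviduct-rich libraries, and -0.68, -0.34 and 1.44 without the periovulatory-rich ones. DESeq2 still passed Nr5a2 at dose 1 in both cases, with adjusted p-values of 0.0463 and 0.0106.

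**Figure D4:**
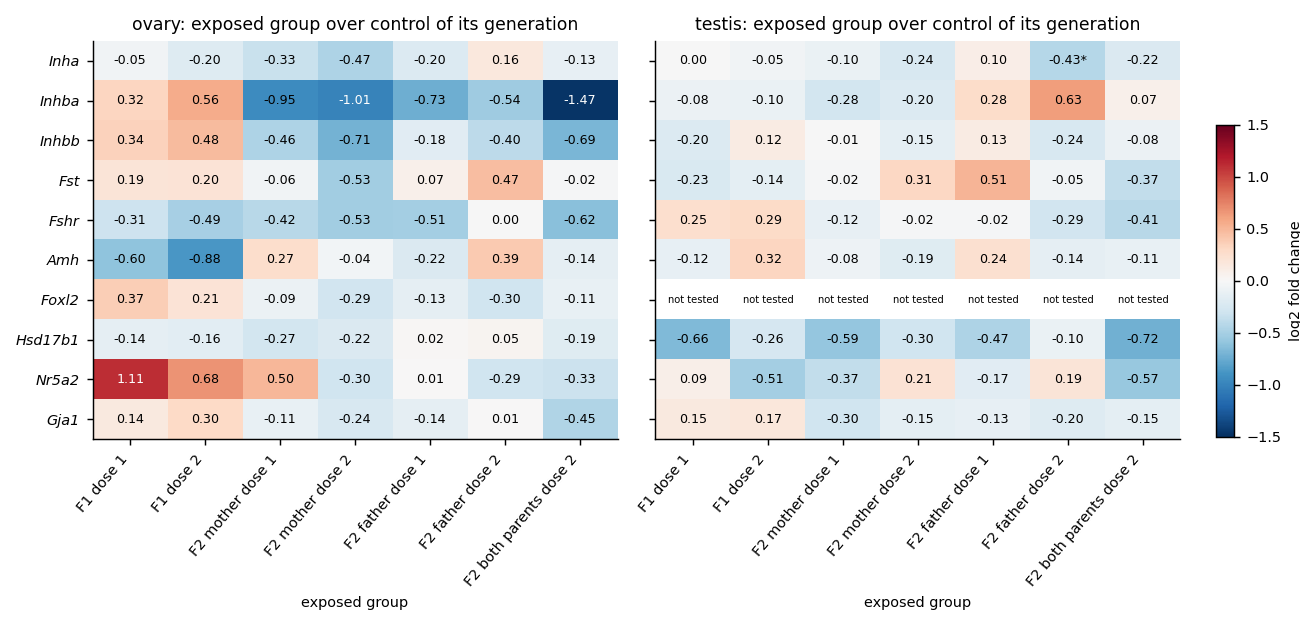
Log2 difference of each exposed group over the controls of its generation, for each gene (vertical axis) and exposed group (horizontal axis), in ovary and testis, with colour for sign and size and an asterisk at an adjusted p below 0.05. Ovary Inhba was negative in all 5 F2 groups and positive in both F1 groups, and 1 cell, testis Inha for dose 2 fathers, carries the asterisk. Testis Foxl2 was not tested.

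In F2 ovaries, Inhba was lower than in the ovaries of control parents' daughters in all 5 groups with an exposed parent, without passing the edgeR test in any. It had 669, 448 and 496 CPM in daughters of dose 1 mothers and 512, 452 and 588 CPM in daughters of dose 2 mothers. Daughters of dose 1 fathers had 483, 586 and 798 CPM and daughters of dose 2 fathers 1049, 641 and 466 CPM. Daughters of dose 2 parents had 375, 244 and 501 CPM, against 1481, 809 and 818 CPM in daughters of control parents. All libraries of 4 groups lay below all controls, and only dose 2 fathers overlapped them. The control group was the highest of the 9 ovary groups for Inhba, with a mean of 1036 ± 385 CPM, and the dose 2 parents group the lowest, with 373 ± 128 CPM (SD, n = 3 each). F1 controls, at 484 ± 201 CPM (SD, n = 3), stood next to the lowest.

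The log2 difference of Inhba was -0.95 ± 0.33 for dose 1 mothers, -1.01 ± 0.33 for dose 2 mothers, -0.73 ± 0.33 for dose 1 fathers, -0.54 ± 0.33 for dose 2 fathers and -1.47 ± 0.33 for dose 2 parents. The edgeR adjusted p was 0.0524 for dose 2 parents and 0.386 to 0.731 for the others. DESeq2 gave 0.000647 for dose 2 parents, where it called 10.7% of all genes. All 5 comparisons share the same 3 control libraries, of which A was the highest. Without control A the difference for dose 2 parents was -1.12, and without control C, the library highest in periovulatory genes, it was -1.62.

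The lowest F2 ovary means of Inhbb were those of dose 2 mothers and dose 2 parents, close to each other. It had 391, 476 and 529 CPM in daughters of dose 2 parents and 740.3, 317 and 324 CPM in daughters of dose 2 mothers, against 704, 1088 and 462 CPM in daughters of control parents. The controls spanned more than either group and overlapped both. The log2 difference was -0.69 ± 0.33 for dose 2 parents and -0.71 ± 0.33 for dose 2 mothers (adjusted p = 0.217 and 0.851, edgeR). Inha differed by less, at -0.13 ± 0.18 for dose 2 parents, -0.47 ± 0.19 for dose 2 mothers and 0.16 ± 0.18 for dose 2 fathers. Alpha over the summed beta subunits per length averaged 10.8 ± 1.01 in daughters of dose 2 parents, against 6.01 ± 0.864 in daughters of control parents (SD, n = 3 each). In unexposed F1 control ovaries it averaged 9.66 ± 4.09 (SD, n = 3), so the control groups of the generations also differed.

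Fshr was lower in 4 of the 5 F2 ovary groups and level in daughters of dose 2 fathers. It had 37.3, 46.5 and 30.5 CPM for dose 1 mothers, 30.6, 42.8 and 32.7 CPM for dose 2 mothers and 35.95, 33.5 and 37.7 CPM for dose 1 fathers. Dose 2 fathers gave 48.8, 51.9 and 52.9 CPM and dose 2 parents 42.5, 22.3 and 34.6 CPM, against 54.1, 53.7 and 45.2 CPM for control parents. The groups of dose 2 mothers, dose 1 fathers and dose 2 parents lay wholly below the controls. Control parents averaged 51.0 ± 5.05 CPM, the second highest mean of the 9 ovary groups, and all these comparisons share them. Unexposed F1 controls averaged 34.6 ± 2.62 CPM (SD, n = 3 each). The log2 difference was -0.62 ± 0.19 for dose 2 parents (edgeR adjusted p = 0.0825, DESeq2 0.0247) and -0.00 ± 0.19 for dose 2 fathers (edgeR adjusted p = 0.995). The oocyte gene sum was 399 to 461 CPM for dose 2 parents and 543 to 596 CPM for dose 2 fathers, against 396 to 472 CPM for control parents.

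Gja1 had 1809, 1412 and 1445 CPM in daughters of dose 2 parents and 1564, 1892 and 1947 CPM in daughters of dose 2 mothers, against 2233, 2115 and 2035 CPM in daughters of control parents. Both groups lay wholly below the controls, whose spread was small. Unexposed F1 control ovaries averaged 1670 ± 422 CPM (SD, n = 3). The log2 difference was -0.45 ± 0.12 for dose 2 parents (edgeR adjusted p = 0.0572, DESeq2 0.00488) and -0.24 ± 0.12 for dose 2 mothers (edgeR adjusted p = 0.862). Without control C, the dose 2 parents difference was -0.48 for Gja1 (edgeR adjusted p = 0.184, DESeq2 0.0280) and -0.70 for Fshr (edgeR 0.192, DESeq2 0.0597), so that the DESeq2 call of Fshr was lost.

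The other genes were closer to the F2 controls. Nr5a2 in daughters of dose 1 mothers had 368, 481 and 543 CPM, all above the 347, 299.8 and 336 CPM of control parents, with a log2 difference of 0.50 ± 0.21. For dose 2 fathers Nr5a2 and Foxl2 lay wholly below the controls, with log2 differences of -0.29 ± 0.21 and -0.30 ± 0.14. Hsd17b1 lay wholly below the controls for dose 1 mothers, at -0.27 ± 0.25. Amh had 367, 355 and 286 CPM for dose 2 fathers, against 222, 246 and 297 CPM for control parents, and the groups overlapped. Fst had 318, 283 and 290.3 CPM for dose 2 fathers, against 323, 152 and 165 CPM for control parents, where control A alone was as high as the exposed group.

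All 10 fitted differences were negative for dose 2 mothers and for dose 2 parents, with medians of -0.38 and -0.26 on the log2 scale, against -0.01 and 0.01 over all genes. They were 5 positive and 5 negative for dose 2 fathers. By edgeR's quasi-likelihood test 0 of 10 genes were called in each of the 5 comparisons, where 0% of all genes were called for dose 1 mothers, dose 2 mothers and dose 1 fathers, 0.00573% for dose 2 fathers and 0.688% for dose 2 parents. At an unadjusted p under 0.05 the counts were 3 for dose 1 mothers, 4 for dose 2 mothers and 2 for dose 1 fathers. They were 1 for dose 2 fathers and 3 for dose 2 parents. Of all genes, 9.20%, 5.83%, 9.63%, 15.8% and 24.5% had such a p in that order. DESeq2 called 3 genes for dose 2 parents, Inhba, Fshr and Gja1, where it called 10.7% of all genes, and 0 in the other 4 comparisons, where it called 0.722%, 0.0802%, 0.476% and 2.12% in the same order. Genes that did not overlap the controls numbered 3, 3, 2, 2 and 3 of 10 in that order of groups, ending with dose 2 parents. The shares over all genes were 14%, 10.4%, 15.1%, 20.8% and 26.3%.

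The granulosa gene list of 18 genes summed to 10486 to 10594 CPM in daughters of dose 2 parents, against 8632 to 9592 CPM in daughters of control parents, with none at 0. The 10 luteal genes summed to 18136 to 19636 CPM, against 14323 to 16921 CPM, and the periovulatory genes to 81.8 to 127 CPM, against 81.8 to 558 CPM. The lower Inhba, Fshr and Gja1 of that group therefore stood beside higher sums of both lists. Cyp11a1 and Lhcgr are in both lists, so the sums are not separate. Cyp11a1 was itself higher in that group (levels given below) and made up most of the granulosa sum. A rise of granulosa genes in general is therefore not shown. The part of luteal cells in these differences was not tested.

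In testis, Inha was the single gene of the 10 to pass the test in any exposure comparison. Sons of dose 2 fathers had 54.5, 56.3 and 63.7 CPM, against 88.5, 60.9 and 84.8 CPM in sons of control parents. The means were 58.2 ± 4.86 and 78.1 ± 15.01 CPM (SD, n = 3 each), the lowest and the second highest of the 9 testis groups, and control B lay within the range of the exposed group. Inha fell by 0.43 ± 0.12 on the log2 scale (edgeR adjusted p = 0.0424, DESeq2 0.0137), where 5.33% of all genes passed by edgeR and 9.77% by DESeq2. With each of the 18 F2 libraries left out in turn, it still passed 8 times and was lost 10 times. Its log2 difference then ran from -0.57 to -0.32, with adjusted p from 0.00168, without control B, to 0.213, without control C. Without control A the adjusted p was 0.209. A fit of the 6 libraries compared alone gave 0.103.

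Other F2 testis groups had Inha levels between these. Sons of dose 2 parents had 66.5, 65.3 and 71.7 CPM and sons of dose 2 mothers 59.9, 66.9 and 71.5 CPM, at -0.22 ± 0.12 and -0.24 ± 0.12 on the log2 scale (adjusted p = 0.279 and 0.279, edgeR). Sons of dose 1 fathers had 83.6, 86.1 and 81.9 CPM, the highest group mean of the 9.

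Summed Sertoli and Leydig cell genes also stood lower in the sons of dose 2 fathers. The 17 Sertoli genes summed to 1168 to 1204 CPM in sons of dose 2 fathers, against 1179 to 1543 CPM in sons of control parents, and the 8 Leydig genes to 1016 to 1075 CPM, against 1408 to 1476 CPM. All 5 F2 groups with an exposed parent lay wholly below the F2 controls in summed Leydig genes. They included sons of dose 1 fathers (957 to 1089.6 CPM), the group with the highest Inha mean. Unexposed F1 control testes summed to 1081 to 1136 CPM, also wholly below the F2 controls. None of these genes was at 0 in any testis library, and the Sertoli sums of dose 2 fathers and controls overlapped. Across the 27 testis libraries, after group means were subtracted, Inha followed the summed Sertoli genes with Pearson r = 0.86 and Spearman rho = 0.80. It ran against the summed spermatocyte genes, at r = -0.63 and rho = -0.58, and the points share library and depth. Spermatocyte genes summed to 1046 to 1145 CPM in sons of dose 2 fathers and 993 to 1077 CPM in sons of control parents, which overlapped. The part of Sertoli cell or spermatocyte content in the Inha difference was not tested. Clu, a Sertoli secretory gene, had 585, 585 and 598 CPM in sons of dose 2 fathers, against 849, 606 and 846 CPM in sons of control parents. It fell by 0.38 ± 0.10 on the log2 scale (edgeR adjusted p = 0.0417), and control B was again the low control.

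**Figure D5:**
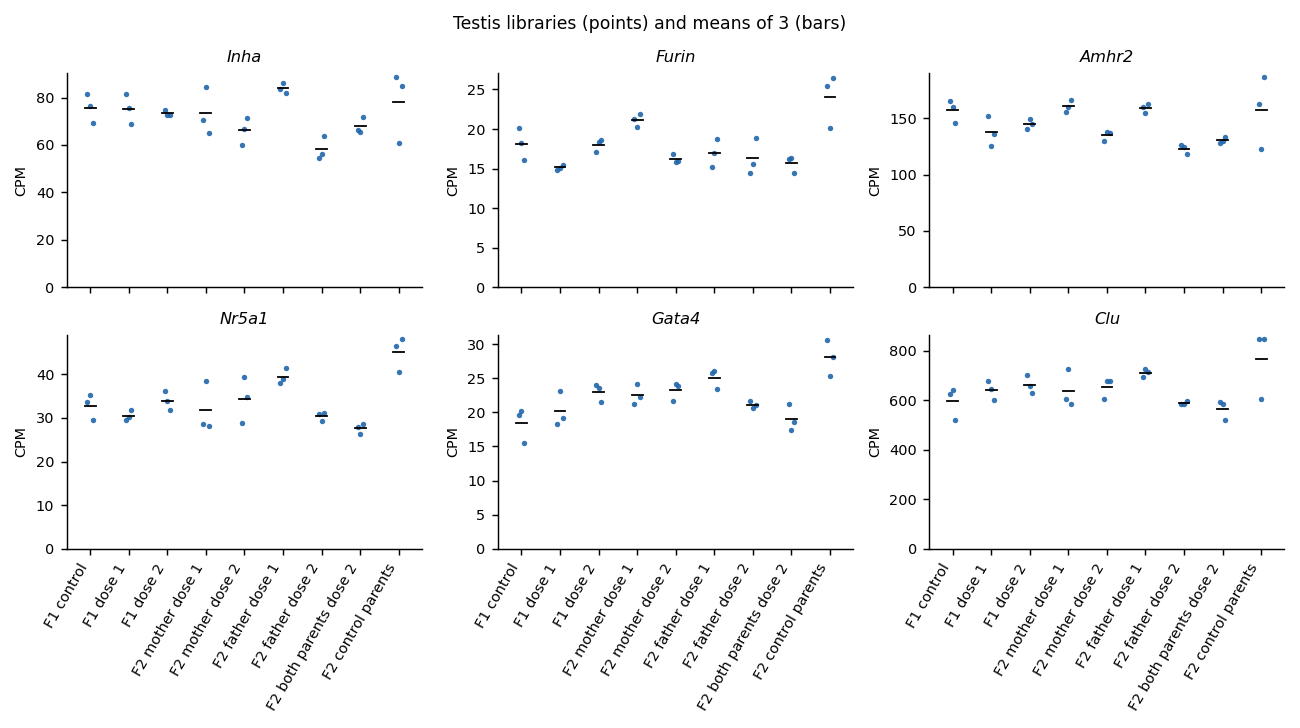
Testis levels of Inha, Furin, Amhr2, Nr5a1, Gata4 and Clu in the 9 groups (horizontal axis), in CPM per library (points) with the group mean as a bar. The sons of dose 2 fathers had the lowest Inha mean (58.2 CPM), and control parents library B (60.9 CPM) lay within their range.

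Neither beta subunit passed by edgeR in sons of dose 2 fathers. Inhbb did not pass by DESeq2 either, and DESeq2 gave no adjusted p for Inhba. Inhbb had 17.5, 21.2 and 23.2 CPM in sons of dose 2 fathers, against 23.5, 19.4 and 29.99 CPM in sons of control parents, and the groups overlapped. Inhba had 0.645, 0.743 and 0.708 CPM in sons of dose 2 fathers, all above the 0.579, 0.345 and 0.428 CPM of control parents. Its log2 difference was 0.63 ± 0.30 (edgeR adjusted p = 0.211), on the few and uncertain counts named above. The ratio of Inhba to Inhbb per length was 0.0227 ± 0.00219 in sons of dose 2 fathers and 0.0126 ± 0.00352 in sons of control parents (SD, n = 3 each).

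In F1 testes, Inhbb had 23.8, 23.8 and 22.7 CPM in controls, 21.97, 19.1 and 19.5 at dose 1 and 27.6, 25.3 and 23.5 at dose 2. The doses did not overlap, and dose 1 alone lay wholly below the controls. Dose 2 over dose 1 gave a log2 difference of 0.32 ± 0.09, with an adjusted p of 0.122 by edgeR and 0.0288 by DESeq2. Without the 3 libraries highest in spermatid genes it was 0.39 (edgeR adjusted p = 0.0449). Amh had 2.06, 1.64 and 1.91 CPM in controls, 1.97, 1.71 and 1.46 at dose 1 and 2.56, 2.15 and 2.30 at dose 2. Dose 2 lay wholly above both, with log2 differences of 0.32 ± 0.19 over control and 0.44 ± 0.19 over dose 1 (adjusted p = 0.323 and 0.225, edgeR). In this comparison of doses edgeR called 0 of 9 tested genes (0.227% of all genes). DESeq2 called 1, Inhbb (6.69% of all genes), and gave no adjusted p for Inhba, Fst, Hsd17b1 and Nr5a2. By edgeR, 2 genes had an unadjusted p under 0.05, against 20.3% of all genes. These 2 genes were also the ones that separated the doses, where 25.3% of all genes did.

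Testis Gja1 was lowest of the F2 groups in sons of dose 1 mothers. It had 41.95, 40.6 and 44.6 CPM there and 43.2, 46.5 and 46.2 CPM in sons of dose 2 fathers, all below the 48.1, 52.5 and 54.4 CPM of control parents. The log2 difference was -0.30 ± 0.09 for dose 1 mothers (adjusted p = 0.108, edgeR) and -0.20 ± 0.09 for dose 2 fathers (0.182). Control parents had the highest Gja1 mean of the 9 testis groups, 51.6 ± 3.23 CPM (SD, n = 3). Unexposed F1 controls had the lowest, 40.4 ± 5.94 CPM (SD, n = 3), so the control groups of the generations also differed. Without the spermatid-rich library C of dose 2 parents in the fit, the difference for dose 1 mothers was -0.29, with an adjusted p of 0.0333. The 10 spermatid genes summed to 18247 to 18609.7 CPM in sons of dose 1 mothers, against 14996 to 16770.0 CPM in sons of control parents, and the 8 adipocyte genes to 17.00 to 17.4 CPM, against 13.2 to 14.3 CPM. Across the 27 testis libraries, after group means were subtracted, Gja1 ran against both sums, with Pearson r = -0.79 and -0.78 and Spearman rho = -0.58 and -0.68. The part of these cells in the Gja1 difference was not tested. Hsd17b1 and Fshr had their largest F2 testis differences in sons of dose 2 parents, at -0.72 ± 0.34 and -0.41 ± 0.19 (adjusted p = 0.217 and 0.207, edgeR).

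Of the 9 genes tested in testis, edgeR called 0 at F1 dose 1 (0.0317% of all genes), 0 at F1 dose 2 (2.21%), 0 for dose 1 mothers (0.816%), 0 for dose 2 mothers (1.7%), 0 for dose 1 fathers (3.97%), 1 for dose 2 fathers (5.33%) and 0 for dose 2 parents (4.59%). Unadjusted p-values under 0.05 numbered 1, 0, 1, 0, 0, 2 and 2 in that order of groups. Of all genes, 8.55%, 23.6%, 17.9%, 18.5%, 18.4%, 24.3% and 22.1% had such a p. DESeq2 called 1 for dose 2 fathers and 0 in the other 6, against 0.724%, 10.1%, 3.38%, 4.97%, 6.66%, 9.77% and 8.14% of all genes. It gave no adjusted p for Inhba, Fst, Hsd17b1 and Nr5a2 at F1 dose 2 and for dose 2 fathers. For dose 1 mothers it gave none for Inhba and Hsd17b1. Genes that did not overlap the controls numbered 1, 1, 2, 0, 2, 2 and 0 in the same order. The shares over all genes were 13.1%, 35.5%, 25.1%, 21.8%, 23%, 28.7% and 20%.

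Because a call in one tissue and not the other does not show that the tissues differ, the difference of the effects was tested. The effect in ovary minus that in testis was -1.21 ± 0.35 for Amh at F1 dose 2, where ovary libraries were all below and testis libraries all above their controls. Its edgeR adjusted p was 0.0597 and DESeq2's 0.0249. For Fshr at F1 dose 2 it was -0.80 ± 0.26 (edgeR adjusted p = 0.0941). For Inha with dose 2 fathers it was 0.62 ± 0.21 (edgeR adjusted p = 0.122). For Inhba with dose 2 parents it was -1.55 ± 0.58 (edgeR adjusted p = 0.147, DESeq2 0.0477). Over 7 exposed groups and 10 genes, edgeR called 0 of 70 differences, 9 had an unadjusted p under 0.05 and DESeq2 called 2. Of all genes, edgeR called 0.0288%, 2.19%, 0.101%, 0.0336%, 0.105%, 0.772% and 1.88% at F1 dose 1 and dose 2 and for dose 1 mothers, dose 2 mothers, dose 1 fathers, dose 2 fathers and dose 2 parents. DESeq2 called 0.398%, 3.62%, 0.618%, 0.383%, 0.997%, 3.11% and 4.16% in the same order. An unadjusted edgeR p under 0.05 was held by 9.52%, 13.9%, 9.81%, 9.59%, 10.8%, 16.7% and 17.4% of all genes.

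The receptors and Smads of the pathway were mostly higher in ovary as well. Of 12 receptor and co-receptor genes, 8 passed as higher and 2 as lower in ovary in F1 controls, and 9 and 1 in F2 control parents. Of all genes, 42.9% passed as higher in ovary in F1 controls and 42.7% in F2 control parents. The type I receptor Acvr1 differed by 3.13 in F1 controls and 2.79 in F2 control parents on the log2 scale, the type II receptor Acvr2b by 1.93 and 2.37, and Bmpr1b by 6.84 and 7.62. Acvr1b, the activin type I receptor, differed by 0.20 and -0.02 and did not pass, and its sign changed with the scaling. With DESeq2's size factors it passed as lower in F2 control parents (-0.34, edgeR adjusted p = 0.00958). With upper-quartile factors it passed as higher in F1 controls (0.35, edgeR adjusted p = 0.0111). Amhr2 encodes the receptor for anti-Müllerian hormone. On the scale fitted over both tissues it averaged 134 ± 32.8 CPM in ovary and 189.8 ± 10.8 CPM in testis in F1 controls, and 128 ± 3.75 CPM in ovary and 192 ± 39.9 CPM in testis in F2 control parents (SD, n = 3 each). Its fitted log2 difference was -0.50 ± 0.13 in F1 controls and -0.58 ± 0.13 in F2 control parents (edgeR adjusted p = 0.00065 and 0.000106). It was -0.81 and -0.90 with DESeq2's size factors and -0.35 and -0.44 with upper-quartile factors. The sign rests on scaling the tissues together: on CPM scaled within each tissue, Amhr2 averaged 161 ± 40.3 in ovary and 157 ± 10.4 in testis in F1 controls, and 154 ± 4.02 and 157 ± 32.5 in F2 control parents. A difference between Amhr2 in the tissues is therefore uncertain.

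Of 8 Smad genes, 7 passed as higher and 1 as lower in ovary in both control sets. Smad3, which carries activin signals, differed by 3.01 and 3.27, and the inhibitory Smad7 by 3.10 and 2.73. Smad6, also inhibitory, was the lower one, at -0.89 and -1.09. Of 8 other ligands and modifiers, 6 were tested, with 4 higher and 1 lower in F1 controls and 4 and 2 in F2 control parents. Beside these counts and those of the Smads, 42.9% and 42.7% of all genes passed as higher in ovary. With 6 genes, the modifier count is not shown to exceed that share. The proprotein convertases Furin and Pcsk5, which belong to the enzyme family that cleaves such precursors, differed by 2.76 and 4.81 in F1 controls. The pseudoreceptor Bambi differed by -0.35 and -0.74, and by -0.20 in F1 controls with upper-quartile factors, where it did not pass. On CPM scaled within each tissue it averaged 25.9 ± 8.04 in ovary and 22.8 ± 0.550 in testis in F1 controls, so the sign in F1 controls depends on the scaling. With DESeq2's size factors, 6 Smads were higher in both control sets and 3 receptors lower in F2 control parents. With upper-quartile factors, 10 receptors were higher in F1 controls.

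In the exposure comparisons, few pathway genes passed. In ovary, Bambi rose in daughters of dose 2 parents, to 28.7, 24.01 and 33.7 CPM, against 18.1, 16.8 and 15.6 CPM in daughters of control parents. The groups did not overlap and the log2 difference was 0.77 ± 0.16 (edgeR adjusted p = 0.0474). It was the only one of the 6 tested ligand and modifier genes to pass there, and 0 of 12 receptors and 0 of 8 Smads passed. Of all genes, edgeR called 0.688% in that comparison. In testis, Furin fell in sons of dose 2 mothers, dose 1 fathers, dose 2 fathers and dose 2 parents. Of all genes, edgeR called 1.7%, 3.97%, 5.33% and 4.59% in that order of groups. Furin had 16.2, 16.3 and 14.4 CPM in sons of dose 2 parents and 14.5, 15.6 and 18.8 CPM in sons of dose 2 fathers, against 25.4, 20.1 and 26.4 CPM in sons of control parents. Its log2 difference was -0.63 ± 0.11 for dose 2 parents (edgeR adjusted p = 0.00585). These comparisons share their controls. Furin averaged 18.1 ± 2.00 CPM in F1 control testes and 24.00 ± 3.40 CPM in F2 control parents testes (SD, n = 3 each).

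Acvr1 fell in sons of dose 2 parents, to 5.38, 4.55 and 3.96 CPM, against 6.30, 6.20 and 7.50 CPM in sons of control parents (-0.54 ± 0.14 on the log2 scale, edgeR adjusted p = 0.0367). Amhr2 fell in sons of dose 2 fathers, to 126, 125 and 118 CPM, against 163, 122 and 187 CPM in sons of control parents, and the groups overlapped (-0.36 ± 0.10, edgeR adjusted p = 0.0415). These calls stood beside 4.59% of all genes for dose 2 parents and 5.33% for dose 2 fathers. No Smad gene passed in any exposure comparison of either tissue.

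Of the 17 granulosa-list genes tested in testis, 4 fell and 0 rose in sons of dose 2 fathers, and 3 fell and 0 rose in sons of dose 2 parents. Of all genes, edgeR called 5.33% for dose 2 fathers (2.94% higher and 2.39% lower) and 4.59% for dose 2 parents (1.78% higher and 2.81% lower). The genes included the gonadal regulators Nr5a1 and Gata4, which Sertoli and Leydig cells also express. Nr5a1 had 30.9, 29.3 and 31.1 CPM in sons of dose 2 fathers, against 46.5, 40.6 and 48.1 CPM in sons of control parents (-0.57 ± 0.12, edgeR adjusted p = 0.0129). Gata4 had 21.7, 20.7 and 21.02 CPM, against 30.7, 25.4 and 28.2 CPM (-0.42 ± 0.09, edgeR adjusted p = 0.0204). The F2 controls were also above the F1 controls, which averaged 32.8 ± 2.97 CPM for Nr5a1 and 18.5 ± 2.51 CPM for Gata4, against 45.1 ± 3.97 and 28.1 ± 2.67 CPM in F2 controls (SD, n = 3 each). The granulosa list summed to 416 to 434 CPM in F2 control testes, above every library of the other 8 testis groups. The other genes that fell with dose 2 fathers were the steroidogenic enzyme Cyp11a1 and the nuclear receptor Nr0b1. Of 17 Sertoli genes, 1 fell in each of these groups, Clu, by 0.38 and 0.45 on the log2 scale.

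Within groups, the ovary genes varied together to different degrees. After group means were subtracted from log2 CPM over 27 libraries, the closest pair was Inhbb with Foxl2, at Pearson r = 0.71, Spearman rho 0.65, and 0.63 without the 2 libraries farthest from the median. Hsd17b1 followed Inhbb (r = 0.64), Foxl2 (0.62) and Inha (0.62). Inha followed Foxl2 (0.61) and Fst (0.59), and Inhba followed Fst (0.51). The beta subunits were less alike, at r = 0.06, and Amh went against Gja1 (-0.48). Fshr followed the summed oocyte genes (r = 0.58, Spearman rho = 0.67). In testis the closest of the well-counted pairs was Inha with Amh (r = 0.54). Points share their library and depth, and these values are descriptions.

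The genes most like each member in ovary were found among 13901 genes by the same measure. For Amh they were Mrnip (0.90), Kctd14 (0.89) and Ank1 (0.87), and for Inhba they were Plxnc1 (0.89), Trib2 (0.84) and Grin2b (0.84). For Inha they were Thra (0.86), Naa80 (0.82) and Bambi (0.82), and for Inhbb they were Cyb5rl (0.82), Shroom1 (0.81) and Kcne2 (0.81). Fst was most like Nppc (0.81), Fshr most like Zdhhc1 (0.84) and Foxl2 most like Hexim2 (0.84). Hsd17b1 was most like Fndc5 (0.87), Nr5a2 most like Hmcn1 (0.81) and Gja1 most like Phex (0.86). In testis, among 14267 genes, Inha was most like Gamt (0.87), Inhbb most like Gcc1 (0.89), Gja1 most like Dop1a (0.90), Fshr most like Itga9 (0.80) and Amh most like Med19 (0.80).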

How the data were processed

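Poly(A) RNA was sequenced in 27 ovary and 27 testis libraries, per the labels' protocols, with a stranded mRNA ligation kit and 100 nt reads. The authors deposited raw counts per gene, one table per tissue. Per the submitters' processing notes the tools included TopHat2 2.1.1, Bowtie2 2.4.5, featureCounts 2.0.3 and DESeq2 1.32.0, with build mm39. The sources used here do not state the strand setting or the annotation. The 133 entries without an identifier (0.0591% to 0.0861% of ovary counts and 0.319% to 0.377% of testis counts) were kept in the library totals and the fits.

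The 10 members and all gene lists were chosen with earlier results of these data known. The edgeR 4.0.16 quasi-likelihood test was run in R 4.3.3 on the deposited counts, with trimmed mean of M values scaling, a count minimum of 10 (filterByExpr) and Benjamini-Hochberg adjustment over all genes. F1 and F2 libraries of a tissue were fitted separately, and all 54 together for ovary over testis and for differences of effects. CPM per kilobase used the exon union of the GRCm38 annotation. Alternatives were DESeq2 1.42.0, other scaling, no filter, a replicate block, other sets of libraries and each library left out. The edgeR fits of F2 libraries within a tissue were checked on simulated counts, though not for every comparison. The F1 fits, the fit of all 54 libraries and the DESeq2 fits were not checked in this way. The letters were taken to pair where the deviations of all 3 same-letter pairs correlated above 0.1, which was met in ovary F1 dose 1 against control (0.189, 0.202 and 0.351). Replicates all differed by more than sampling noise. Besides the members, pathway, granulosa and Sertoli list genes past the threshold were named, at most 6 per comparison by smallest p, and the genes most like a member by Pearson r.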

Additional observations from a re-analysis of the deposited data

Results flagged for a closer look

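The effect of exposure differed between the tissues for 5 pairs of a support cell marker gene and an exposed group. The test was edgeR's quasi-likelihood test of the difference with Benjamini-Hochberg adjustment. Of all genes, 2.19% passed it at F1 dose 2, 0.772% for dose 2 fathers and 1.88% for dose 2 parents. The 5 pairs were picked as those that passed among the listed genes. They are not shown to exceed these shares. None of the genes in these pairs is a member of the inhibin and anti-Müllerian hormone set. Aard and Sox8, both from the Sertoli list, changed more in ovary than in testis at F1 dose 2. Aard had 9.61, 7.69 and 8.17 CPM at dose 2, against 21.4, 12.98 and 24.3 CPM in controls, in ovary, and 58.6, 60.4 and 67.5 against 68.2, 68.2 and 64.7 CPM in testis. The effect in ovary minus that in testis was -1.11 ± 0.29 on the log2 scale (edgeR adjusted p = 0.0286). Sox8 had 1.18, 1.33 and 0.960 CPM at dose 2, against 2.26, 2.46 and 2.85 CPM in controls, in ovary, and 12.1, 11.8 and 11.4 against 12.5, 12.2 and 9.73 CPM in testis. Its difference of effects was -1.19 ± 0.28 (edgeR adjusted p = 0.0139).

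Grb14, from the granulosa list, was higher in ovaries and lower in testes of offspring of dose 2 fathers. It had 283, 365 and 461 CPM for dose 2 fathers, against 222, 173 and 151 CPM for control parents, in ovary, and 5.99, 5.06 and 6.21 against 6.59, 6.65 and 7.22 CPM in testis. The difference of effects was 1.29 ± 0.25 for dose 2 fathers and 0.89 ± 0.25 for dose 2 parents (edgeR adjusted p = 0.0107 and 0.0492). Cyp11a1, the first enzyme of steroid synthesis, had 7790.5, 7845 and 7780.5 CPM for dose 2 parents, against 6256, 6456 and 6121 CPM for control parents, in ovary. In testis it had 160.2, 159 and 108 CPM for dose 2 parents, against 235, 244 and 259 CPM for control parents, and the difference of effects was 1.12 ± 0.28 (edgeR adjusted p = 0.029).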

How the results depend on the processing

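The 10 calls of ovary over testis stood in every alternative run, in F1 controls and in F2 control parents, with both scalings, DESeq2, no filter on low counts and 24 of the 54 libraries left out in turn. The other 30 were not left out of the fit over both tissues. Over the 7 ovary exposure comparisons edgeR called 0 and DESeq2 4, and leaving out 1 library gave 0 to 2. The 2 were Inhba and Gja1 for dose 2 parents, without dose 2 fathers A, and the 1 was Inhba for dose 2 parents without dose 2 parents B. Over the 7 testis comparisons edgeR called 1, fits of only the 6 libraries compared called 0, and leaving out the 3 libraries highest in spermatid genes, chosen after seeing the data, gave 2. Leaving out 1 library gave 0 to 3, with 3 without F2 control parents B, 2 without dose 2 parents C and 0 without control parents A or C. It also gave 0 without dose 1 mothers A, dose 2 mothers B or C, dose 1 fathers B or C, dose 2 fathers A or B, or dose 2 parents B. Dose 2 against dose 1 gave 0 calls, 1 with DESeq2 and 1 without the 3 spermatid-rich libraries. The difference between tissues in the exposure effect gave 0 calls, 2 with DESeq2 and 0 to 1 without a library (ovary F1 control B, ovary F1 dose 1 A or testis F2 control parents B). No member's value among those followed reversed. Those followed were the ovary over testis differences and values with a call, an unadjusted p under 0.05 or groups that did not overlap. Other values, including those near 0, were not followed, so reversals among them were not looked for. Acvr1b reversed between tissues, to -0.11 with DESeq2's size factors in F1 controls and to 0.12 with upper-quartile factors in F2 control parents, with no call in these. It was called at -0.34 with DESeq2's size factors in F2 control parents and at 0.35 with upper-quartile factors in F1 controls. Of 1626 single values of the members followed over the alternatives, 1599 kept direction and side of the threshold, 16 gained a call and 11 lost one. With the letters as a replicate block, no call changed, and testis Inha for dose 2 fathers was -0.43 (edgeR adjusted p = 0.045). Depth limits testis Foxl2, Inhba, Hsd17b1, Nr5a2 and Fst, which had at most 48 counts in a library. The causes of these changes were not tested.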
